A study of Mus musculus with 2 samples.

Results

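The microRNA genes of the mouse that carry a number of 1000 or higher were registered late, mostly from deep sequencing, and were described here in the liver of the mouse embryo. Members were chosen by a measured value: at least 10 counts on the strand of the gene, summed over both libraries. A gene also had to bear a GENCODE symbol of Mir with a number of 1000 or higher and to lie outside the imprinted microRNA cluster of distal chromosome 12. The rule gave 119 members among 1973 counted genes and among the 454 counted genes of any name with at least 10 summed counts. Of 569 counted genes of this numbering outside that cluster, 193 had 1 to 9 counts and 257 had 0.

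Both libraries were made from RNA of fewer than 30 bases from livers of B6NCrl embryos at embryonic day 11.5, each from a pool of both sexes. The labels give replicate 1 as 109 embryos and state no pool size for replicate 2. Nothing was treated or altered, and the libraries form 1 group. Whole liver at this stage is a mixture of hepatoblasts, blood-forming cells and endothelium, so fewer cells of a type and less RNA per cell cannot be told apart. Replicate 1 held 3344673 assigned counts and replicate 2 held 1584499. All 4 hepatocyte microRNAs looked up had at least 10 counts, with summed levels of 33044 and 36865 counts per 1000000 assigned counts (CPM) in replicates 1 and 2, whereas none of the 3 counted neural ones did. Endothelial (57443 and 80051 CPM), erythroid (7954 and 11007 CPM) and leukocyte (4975 and 5115 CPM) microRNAs were present too. Of 4 counted ones of striated muscle 1 reached 10 counts, and that list summed to 112 and 145 CPM.

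A microRNA is cut from a hairpin precursor, usually first by the Microprocessor (Drosha with Dgcr8) and then by Dicer, and the mature strand of about the length of a small interfering RNA guides Argonaute to messenger RNAs that match its seed. Many microRNA genes sit inside other genes, called hosts, and can share their transcription. In mirtrons the hairpin is a short intron released by splicing instead of by Drosha. In tailed mirtrons only 1 end of the hairpin is an intron end, and the tail is trimmed. Reads of a host transcript on the same strand would fall in the same count as the microRNA, and their part in the counts was not tested.

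The sequences that the results turn on are given first, from RefSeq on GRCm38.p6, 5′ to 3′. RefSeq held at least 1 mature sequence for 108 of the 119 members, 182 in all. Mature sequences of selected members are shown with the seed, bases 2 to 8, in capitals. They belong to some of the 12 most abundant members and to Mir6538, which was called different between the libraries. The nested second pair of Mir3102 is left out.
miR-1983: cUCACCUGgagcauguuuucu
miR-6236: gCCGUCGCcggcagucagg
miR-1306-5p: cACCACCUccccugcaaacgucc
miR-1306-3p: aCGUUGGCucugguggugaug
miR-1981-5p: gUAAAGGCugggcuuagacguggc
miR-1981-3p: cAUCUAACccuggccuuugac
miR-3074-5p: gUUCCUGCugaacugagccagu
miR-3102-5p: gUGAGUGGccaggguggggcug
miR-3102-3p: gAGCACCCcauuggcuacccaca
miR-5113: aCAGAGGAggagagagauccugu
miR-6538: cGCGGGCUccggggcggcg

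The seeds hardly repeated. Among the 182 mature sequences there were 180 distinct seeds, and 2 seeds were held by a pair of members each. miR-7018-3p and miR-7068-3p share CACCCUG, and both are the 3′ arm of a hairpin that fills an intron. miR-1947-3p and miR-3473d share CACUGAG, which miR-674-5p, from a gene at a mean of 1022 CPM, has too. These sequences are shown for the shared seed, in capitals.
miR-7018-3p: uCACCCUGcugccggcuugcag
miR-7068-3p: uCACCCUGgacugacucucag
miR-1947-3p: gCACUGAGcuagcucucccucc
miR-3473d: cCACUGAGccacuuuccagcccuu
Mature sequences of 11 members had the seed of a gene outside the set that also reached 10 counts. The most abundant such gene was Mir18a, at 10902 CPM, whose miR-18a-3p has the seed CUGCCCU of miR-7069-3p. No member shared a seed with any of the 20 most abundant genes. Files of counts per gene do not show which arm was sequenced, so nothing is known here of the level of either strand.

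The members made up a small share of the microRNA counts, and a single gene held a large part of it. In replicate 1 they held 18501 counts, 0.553% of those assigned (95% exact Clopper-Pearson interval 0.545 to 0.561). In replicate 2 they held 11083 counts, 0.699% (0.687 to 0.713). The exact intervals here and below hold counting error only, without variation between pools. The mean share was 0.626 ± 0.103% (SD, n = 2), and the share was higher in replicate 2. Without Mir1983 the mean fell to 0.301 ± 0.0039%, and the libraries then stood at 0.304% and 0.299%. Mir1983 alone was 45.0% of the members' counts in replicate 1 (95% exact interval 44.3 to 45.7) and 57.3% in replicate 2 (56.4 to 58.2). The 12 most abundant members held 85.5 ± 2.80% of the members' counts (SD, n = 2).

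The typical member was close to the limit of detection. The median of the members' mean levels was 4.53 CPM, with library medians of 4.78 and 5.68 CPM, beside 84.9 CPM over all 454 genes with at least 10 counts and 344 CPM over the 301 microRNA genes numbered below 1000 with at least 10 counts. Only 39 of the 119 members reached a mean of 10 CPM, 7 reached 100 CPM and 1 reached 1000 CPM. Of the 301 lower-numbered genes, 264 reached 10 CPM and 104 reached 1000 CPM. The imprinted cluster of chromosome 12 was not left out of these 301 genes or of the 454. For a gene with 0 counts, up to 3 counts remain possible, which is 0.897 CPM in replicate 1 and 1.89 CPM in replicate 2, counting error only. At least 10 counts in each library were reached by 55 members. At the edge of the rule stood 6 members with exactly 10 summed counts, such as Mir5104 with 6 and 4 and Mir8098 with 10 and 0 in replicates 1 and 2. Just outside it stood 14 genes with 9, such as Mir1931 and Mir3547, each with 7 and 2.

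Passing the minimum was uneven along the numbering. In the block from 1000 to 1999, 24 of 74 counted genes were members, and from 3000 to 3999 it was 28 of 70. From 5000 to 5999 it was 15 of 48, and from 2000 to 2999 it was 1 of 4, Mir2137. The share was lower in the later blocks, with 21 of 191 from 6000 to 6999, 26 of 150 from 7000 to 7999 and 4 of 32 from 8000 to 8999. Median levels of the members were 7.77 CPM in the block from 1000 and 6.35 CPM in that from 3000, then 4.17, 4.02 and 2.85 CPM in those from 5000, 6000 and 7000, while the 4 members from 8000 upwards had a median of 13.0 CPM. The blocks from 6000 and 7000 also held most precursors that end at an intron end, 183 of the 203 counted in all blocks.

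**Figure D1:**
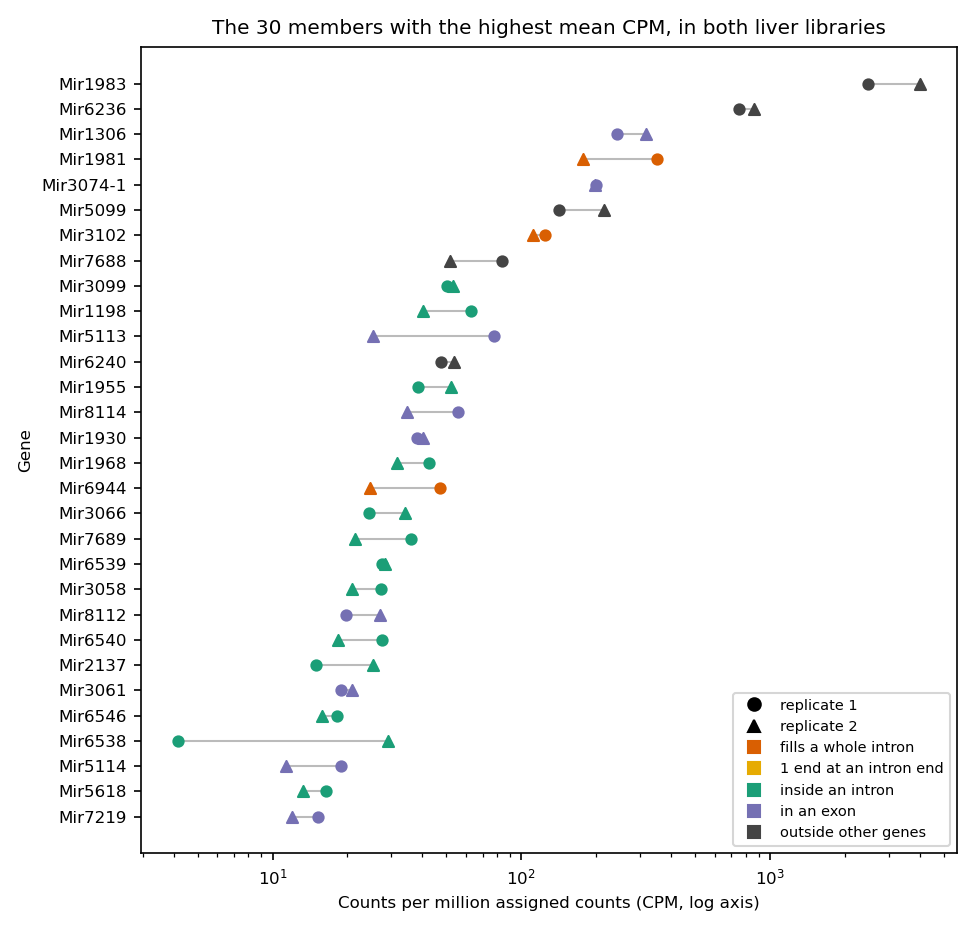
Level of the 30 members with the highest mean, in CPM on a log axis. Circles are replicate 1 and triangles replicate 2, joined by a grey line, and the colour gives the place of the precursor. Mir1983 stands above the rest in both libraries, and Mir6538 has the widest gap, from 4.19 to 29.0 CPM.

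Mir1983 led the members, and its precursor contains an annotated isoleucine tRNA gene. It had 8326 counts in replicate 1 and 6350 in replicate 2, or 2489 and 4008 CPM. The mean of 3248 ± 1074 CPM (SD, n = 2) gave it rank 64 of the 454 genes. Its precursor, chr13:21896918-21897049 of mm10 on the minus strand, lies outside other M21 genes. RefSeq places the tRNA n-TItat14, 94 bases, wholly inside these 132 bases, at chr13:21896938-21897031. The hairpin is shown with the tRNA in capitals, because the mature sequence crosses its end.
Mir1983 hairpin: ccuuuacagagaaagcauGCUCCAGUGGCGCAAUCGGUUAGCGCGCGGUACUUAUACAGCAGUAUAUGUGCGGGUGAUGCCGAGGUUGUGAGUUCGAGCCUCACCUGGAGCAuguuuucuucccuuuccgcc
Of the 21 bases of miR-1983, the first 13 are the last bases of the tRNA and the other 8 follow it, in the stretch that tRNA maturation cuts off. No other member overlapped an annotated small RNA of another class. How many of these reads were tRNA or its trailer cannot be read from a count per gene. Its level was higher in replicate 2 by 0.75 on the log2 scale (95% exact interval 0.70 to 0.80; replicate 2 over replicate 1 here and below). That is under 2-fold, although the adjusted p of the exact binomial test was 9.18e-205.

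Mir6236 followed with 2502 and 1372 counts, 748 and 866 CPM in replicates 1 and 2. It lies outside other genes on chromosome 9, and 22 of its bases in a row recur in a transcript of Wdfy2, the longest stretch it shares with M21 transcripts elsewhere. Mir5099, outside other genes, had 476 and 342 counts, or 142 and 216 CPM. Mir7688, with no gene over it either, had 281 and 82 counts, or 84.0 and 51.8 CPM. Mir6240 had 159 and 85 counts, or 47.5 and 53.6 CPM, and its longest stretch found elsewhere, 23 bases, recurs in D930020B18Rik. Transcripts of 3 genes share at least 20 of its bases in a row. Only M21 transcripts were searched, so ribosomal RNA sequences absent from M21 were not covered for Mir6236 or Mir6240. These 5 genes were the most abundant of the 12 members outside other genes, whose remaining 7 had means from 2.61 to 10.7 CPM. Among the lowest of them, Mir8111 shares a stretch of 20 bases or more with transcripts of 663 other genes, so its 9 and 4 counts are uncertain. The same holds for Mir1934, with 236 such genes and 42 and 14 counts. In all, 19 of the 119 members (16.0%) share such a stretch with M21 transcripts elsewhere, beside 28.6% of the 301 genes numbered below 1000.

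Hosts were the rule. A host gene of any kind covered 107 of the 119 precursors, and no host held a pair of members. In 100 members (84.0%) it was a protein-coding gene on the same strand, beside 128 of the 301 genes numbered below 1000 (42.5%) and 308 of the 450 higher-numbered genes under 10 counts (68.4%). The imprinted cluster of chromosome 12 was left out of the members and the 450 genes but not of the 301, so these shares are not of like sets. Of the other 7, 4 lay opposite to a protein-coding gene and 3 in a noncoding gene on the same strand: Mir1247 in Dio3os, Mir1251 in Rmst and Mir5103 in Gm37233. In M21 gene models 36 precursors had at least 50% of their bases in an exon of some transcript, and 12 were outside other genes. The other 71, in a host but with fewer exonic bases, are called intronic. In 7 of the 36 the exon belonged only to transcripts with a retained intron. For what follows, a precursor with an end within 5 bases of an intron end is put in a class of its own first. That leaves 28 classed as in exons and 45 classed as inside introns. Among the 28 are Mir1930, Mir1249 and Mir3572, of the kind with a retained intron.

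**Figure D2:**
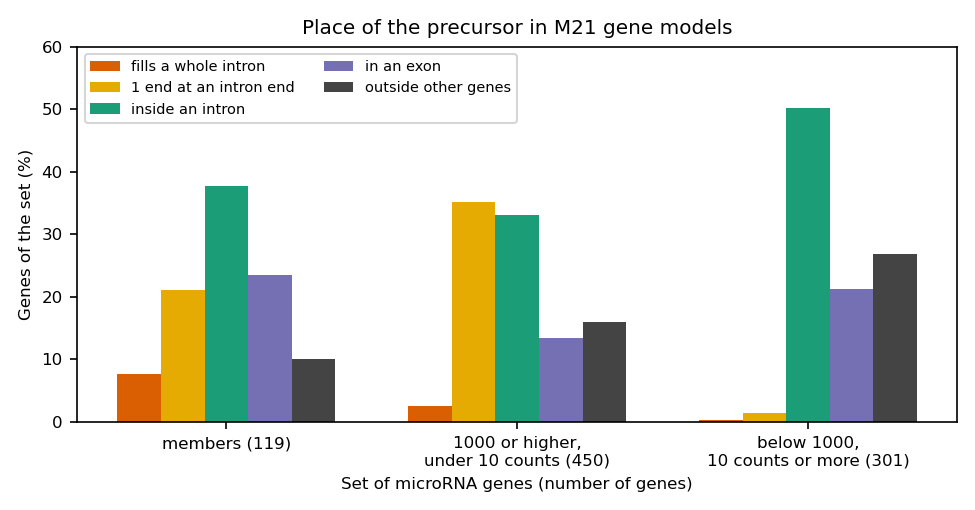
Share of genes in each place, in percent of the set, for the 119 members, the 450 higher-numbered genes under 10 counts and the 301 genes numbered below 1000 with at least 10 counts. Precursors with an intron end make up 28.6% of the members against 37.6% and 1.66% of the other sets. Only the set numbered below 1000 keeps the imprinted cluster of chromosome 12.

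Among the 28 precursors in exons, the most abundant lies inside the coding sequence of a microRNA processing gene. Mir1306, chr16:18284239-18284317 on the minus strand, is wholly within coding sequence of Dgcr8, the RNA-binding partner of Drosha. It had 810 and 504 counts, 242 and 318 CPM. Wholly coding precursors numbered 3. Besides Mir1306 these were Mir7654 in Arglu1, with 34 and 25 counts, and Mir7658 in Plekhn1, with 12 and 11. Mir3074-1 lies in an intron of Fancc, a gene of the Fanconi anaemia DNA repair pathway, and in an exon of 2010111I01Rik on the opposite strand. It had 666 and 313 counts, 199 and 198 CPM, the closest pair of levels among the 12 most abundant. It is the antisense partner of Mir24-1, in a cluster with Mir23b, which averaged 10911 CPM, and Mir27b, which averaged 798 CPM. A run of 30 bases is shared with Mir3074-2, and reads that fit both copies would fall in the class that maps to several places. Mir5113, in noncoding exon sequence of Tnrc6b, whose protein binds Argonaute in gene silencing, had 259 and 40 counts. Mir8114 in Glul, which encodes glutamine synthetase, had 187 and 55 counts, or 55.9 and 34.7 CPM. The class had a median of 6.74 CPM and a share of all counts of 0.0784 ± 0.00014% (SD, n = 2).

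The 45 precursors classed as inside introns reached at most 51.6 CPM, with a median of 6.21 CPM. In this class under 50% of a precursor is exonic and neither of its ends is at an intron end. Mir7025 in Pdgfra and Mir5134 in Ccnf are partly in coding exons, with 40.5% and 10.3% of their bases. Mir3099 in Usp29, a paternally expressed gene, had 168 and 84 counts, or 50.2 and 53.0 CPM. Mir1198 in Gripap1 had 210 and 64 counts, or 62.8 and 40.4 CPM. The means of these 2 genes and of Mir5113 and Mir6240 lay between 50.6 and 51.6 CPM, so their order was not resolved. Likewise, Mir1306 at 280 ± 53.7 CPM and Mir1981 at 264 ± 123 CPM (SD, n = 2 each) overlapped between libraries.

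In 9 members the precursor was an entire intron of a protein-coding gene, within 5 bases at both ends. Mir1981 was the most abundant, with 1176 and 281 counts, or 352 and 177 CPM, in an intron of 82 bases of Marc2, a mitochondrial molybdenum enzyme. Next came Mir3102 with 417 and 177 counts, or 125 and 112 CPM, in an intron of 104 bases of Arhgef17. Mir6944 had 157 and 39 counts, or 46.9 and 24.6 CPM, in 96 bases of Dbn1, the gene of the actin-binding protein drebrin. These 3 genes stood above the other 6, which ranged from 1.66 to 7.96 CPM. In that lower group were Mir1982 in Oaz1 (antizyme, an inhibitor of polyamine synthesis) with 30 and 11 counts, and Mir7068 in Cherp with 13 and 6. Mir1224 in Vwa5b2 had 16 and 3 counts, Mir7018 in Hspg2 (perlecan, a basement membrane proteoglycan) 11 and 4, Mir6958 in Dennd6b 9 and 5, and Mir7091 in Dnase1l1 9 and 1. The introns were 73 to 104 bases long. Among genes numbered below 1000 with at least 10 counts, 1 of 301 was laid out in this way, and among higher-numbered genes under 10 counts, 11 of 450.

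RefSeq held the hairpin of 8 of these 9 genes, and all 8 begin with GU and end with AG, the bases of splice sites. Such bases come with the choice of precursors at annotated intron ends and are no separate result. Of the 8 hairpins, 4 are shown with GU and AG in capitals, because they show an intron that is also a hairpin.
Mir1981: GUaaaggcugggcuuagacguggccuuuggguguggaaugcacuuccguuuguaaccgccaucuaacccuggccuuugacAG
Mir6944: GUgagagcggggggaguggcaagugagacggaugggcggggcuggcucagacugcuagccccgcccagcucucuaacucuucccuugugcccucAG
Mir1224: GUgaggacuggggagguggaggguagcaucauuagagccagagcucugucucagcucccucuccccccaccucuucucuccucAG
Mir7018: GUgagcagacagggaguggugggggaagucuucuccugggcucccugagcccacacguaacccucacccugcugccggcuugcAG
The median GC content of the 9 precursors was 63.0%, beside 55.0% over all members.

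**Figure D3:**
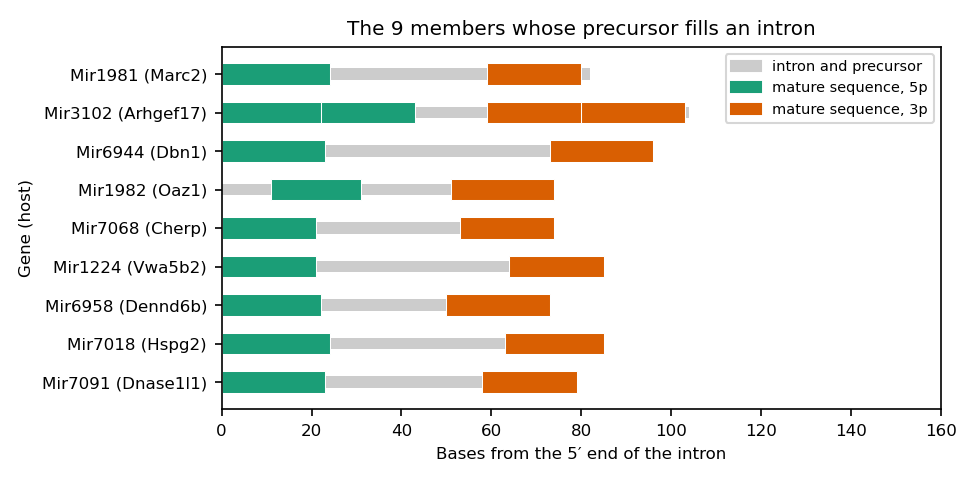
Position of the RefSeq mature sequences along the 9 introns that are whole precursors, in bases from the 5′ end of the intron, with the host in brackets. Green marks the 5p and orange the 3p sequences. They begin or end at or near the intron ends except the 5p sequence of Mir1982 and the nested second pair of Mir3102.

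A further 25 members had 1 end at an intron end, and in 24 it was the 3′ end. Mir6936 in Sirt7 was the exception, with the 5′ end there. Their median level was 3.21 CPM and the highest 11.8 CPM, beside a median of 3.84 CPM for the 9 whole introns. Together they held 0.0104 ± 0.0012% of all counts (SD, n = 2). Mir3062 in Pfas, an enzyme of purine synthesis, had 37 and 20 counts and the highest level. Its precursor of 105 bases covers the whole of an intron of 97 bases and passes both ends. Within 10 bases it would count as a whole intron. Mir3076 in Tkt, the transketolase of the pentose phosphate pathway, had 41 and 14. Mir3064 in Ddx5, an RNA helicase that works with Drosha, had 36 and 12, and Mir7069 in Farsa, a subunit of phenylalanyl-tRNA synthetase, had 33 and 8. Their introns ranged from 66 to 2898 bases. Of the 20 with a RefSeq hairpin, 16 end with AG, which again comes with the choice of annotated intron ends. Mir7069 is shown as an example, with the last 2 bases of the intron in capitals.
Mir7069: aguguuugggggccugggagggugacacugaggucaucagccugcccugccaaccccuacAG
The mature 3′ arms were placed against the end of the precursor. In 33 members the 3′ end of the precursor is at an intron end, and 29 of them have a mature sequence of the 3′ arm. It ended on the last base of the precursor in 22, 1 or 2 bases before it in 6, and 23 bases before it in Mir3062. Some 3′ arms away from intron ends, such as miR-7688-3p and miR-7654-3p, also end on the last precursor base. The trait is thus not particular to intron ends.

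Precursors with 1 intron end were common in this numbering whether or not they were detected: 25 of 119 members against 158 of 450 genes under 10 counts. With 1 or both ends at an intron end it was 34 of 119 and 169 of 450. These are shares of annotated genes, and the count minimum that separates the sets is the rule that chose the members.

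Between the libraries, 12 of the 119 members (10.1%) were called different, beside 7.27% of all 454 genes tested. A call required an adjusted p under 0.05 in a two-sided exact binomial test and a difference of at least 2-fold. The test is conditional on the summed count that chose the members, knows counting noise only, and compares these 2 libraries, not conditions. Higher in replicate 1 were 5 members, where the background over all genes tested is 2.42%, and higher in replicate 2 were 7, where it is 4.85%. With a coefficient of variation of 0.2 assumed between replicates in edgeR's exact test, Mir6538 was the only member called and the only one of all 454 genes (0.220%). Most of the calls rest on few reads, since 11 of the 12 genes had at most 60 summed counts.

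Among the called members other than Mir3081, which had 0 counts in replicate 2, the widest difference was that of Mir6538, in an intron of Rnf144a, which encodes a ubiquitin ligase. It had 14 counts in replicate 1 and 46 in replicate 2, although replicate 2 was the shallower library. The levels were 4.19 and 29.0 CPM, and the log2 ratio was 2.82 (95% exact interval 1.97 to 3.83), with an adjusted p of 2.36e-12 in the exact binomial test. In the other direction Mir5113 in Tnrc6b had 259 and 40 counts, or 77.4 and 25.2 CPM. Its log2 ratio was -1.54 (95% exact interval -2.07 to -1.07), with an adjusted p of 4.87e-12 in the exact binomial test. It was the only member called among the 23 with at least 100 summed counts. When genes under 100 counts were left out of the test, 1 of these 23 members and 5.26% of all genes were called. When genes of any count were tested, 7 members were called, and 4.42% of all genes.

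The remaining calls had between 16 and 51 counts. Towards replicate 2 they were Mir3080 in Tcf20 with 24 and 27 counts, Mir5126 with 17 and 18, and Mir1298 in Htr2c, a serotonin receptor gene, with 13 and 16. Mir6399 in Eif4g3 had 12 and 14 counts, Mir6936 had 7 and 11, and Mir1943 in Tmem184b had 6 and 10. Equal counts in the shallower library stand for higher levels there, and the log2 ratios of these 6 genes ran from 1.22 to 1.83. Towards replicate 1 were 3 precursors of the exon class. These were Mir7662 in Tspan15 with 24 and 3 counts, Mir3572 in Cnot3 with 21 and 2, and Mir5116 in Mmgt1 with 20 and 2. Without transcripts with a retained intron, only 17.4% of the Mir3572 precursor is exonic. Mir3081 in Boc had 16 and 0 counts, at least 2.42-fold higher in replicate 1 when replicate 2 is set to 3 counts and the libraries are scaled as for the other ratios. With the counting error of both libraries, the 95% exact interval of its log2 ratio reached up to -0.81. Adjusted p-values of the 10 genes in the exact binomial test were between 0.00340 and 0.0457. Mir5126 lies opposite to Dner, and 20 of its bases in a row recur in Nova2.

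**Figure D4:**
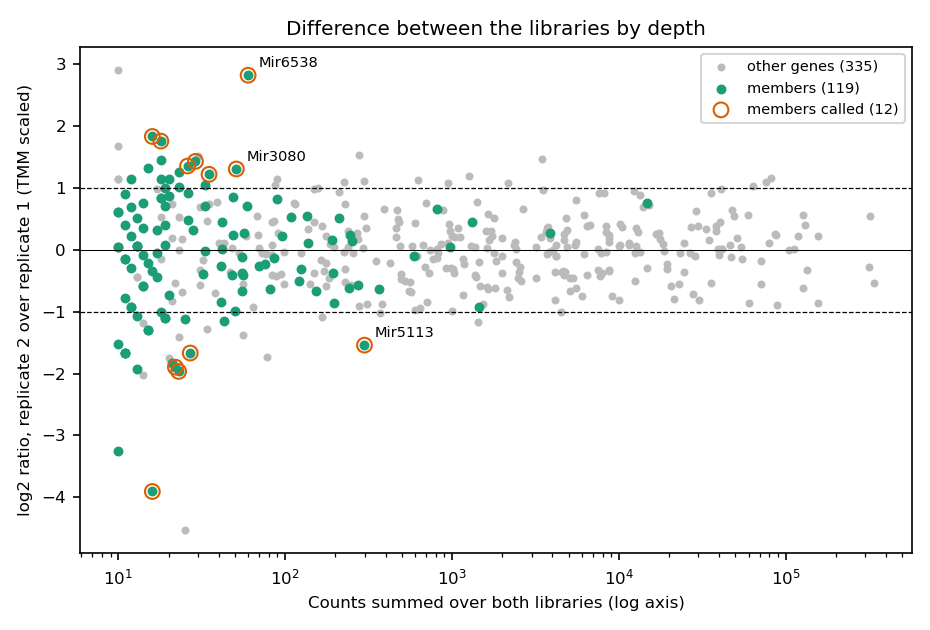
Log2 ratio of replicate 2 over replicate 1 against the summed count on a log axis, for the 119 members (green) and the 335 other genes tested (grey). Rings mark the 12 members called and dashed lines a difference of 2-fold. Below 50 summed counts a member's ratio spreads widely, and from 100 upwards 22 of 23 members lie within 2-fold.

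Members differed between the libraries by a median of 1.58-fold in either direction, beside 1.30-fold for the 335 other genes tested and 1.34-fold over all 454. The split of directions followed the scaling, with 58 members higher in replicate 1 and 61 higher in replicate 2 as scaled here, and 65 and 54 when scaled by total assigned counts. The members were also read by depth. At 10 to 19 counts the median was 1.68-fold for 53 members and 2.09-fold for 25 other genes. At 20 to 49 counts it was 1.86-fold for 28 members and 1.48-fold for 25 others. At 50 to 99 counts it was 1.33-fold for 15 members and 1.32-fold for 23 others, and from 100 counts it was 1.43-fold for 23 members and 1.28-fold for 262 others. Members were thus not the more variable set in every range of depth, and the differences between the sets were not tested. Pearson's r of log2(CPM + 1) between the libraries across the 119 members was 0.91 and Spearman's rho 0.74, against 0.99 and 0.99 across the 335 other genes. Genes within a library are not independent replicates, and the members cover a narrower range of levels.

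By place, the 9 whole introns included no call, the 25 with 1 intron end 1 call, the 45 inside introns 6, the 28 in exons 5 and the 12 outside other genes none. Higher in replicate 1 were 7 of the 9 whole introns, beside 58 of all 119 members and 222 of all 454 genes tested. The most abundant whole intron, Mir1981, differed by -0.92 on the log2 scale (95% exact interval -1.12 to -0.74), just under 2-fold. Mir3102 differed by -0.09 (-0.36 to 0.16). Apart from Mir1981, only Mir6944 among the 9 had a 95% exact interval that excluded equal levels. Among the other genes tested, 8 of 162 inside introns and 6 of 79 in exons were called. Of the 5 calls among members in exons, 4 were towards replicate 1, while of the 6 among other genes in exons 2 were. The 4 include Mir3572, which is mostly exonic only through transcripts with a retained intron. Over all genes tested, 11 of 33 calls were towards replicate 1. Of those 4 members, Mir7662, Mir3572 and Mir5116 were no longer called when genes of any count were tested. Without the 2-fold minimum, 24 of the 119 members had an adjusted p under 0.05 in the exact binomial test, beside 49.1% of all genes tested.

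Depth set what could be called. A 2-fold difference needed at least 62 summed counts to be called towards replicate 1 and 41 towards replicate 2, and 90 of the 119 members had fewer than 62. A 4-fold difference needed 22 and 12 counts, and 57 members had fewer than 22. For the members below these depths, a missing call says that a difference of that size was not detectable.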

How the data were processed

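Small RNA libraries of 2 pools of livers were analysed. Raw counts for each microRNA gene were deposited by the authors, made on mm10 with the GENCODE M4 annotation according to the description deposited beside them. The aligner and counter are not given in the sources used here. Same-strand counts were used. The 4 summary classes that name no gene held 73.8% and 71.0% of the reads in replicates 1 and 2 and stayed out of totals and tests. CPM is the count per 1000000 assigned counts, computed here. Symbols, coordinates and hosts came from GENCODE M21 (1894 of 1973 genes matched; genes of the type TEC were not used as hosts). Mature sequences, hairpins and the tRNA came from RefSeq (GRCm38.p6); sequences of 11 members are not used here. Shared bases were searched in M21 transcripts only, so tRNA copies and any ribosomal RNA repeats absent from M21 were not covered.

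Each of the 454 genes with at least 10 summed counts was tested with a two-sided exact binomial test against TMM effective library sizes (edgeR 4.0.16, R 4.3.3), with Benjamini-Hochberg adjustment over all 454. For the log2 ratio 0.5 was added to each count. DESeq2 1.42.0 gave other size factors. The procedure was run on simulated Poisson counts without further variation between replicates. That is the noise the test assumes, so the simulation says nothing of its behaviour under such variation. The rest used pandas 2.3.3, scipy 1.17.1 and numpy 2.4.6 under Python 3.11.15. Replicates are separate pools per the labels; reads carry no molecular identifiers that the sources describe.

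Named were the 12 members highest in CPM, every called member, the most abundant of each place, genes at the count minimum and members sharing a seed; the remaining names were chosen after their values were seen. Members and lists were chosen with earlier results of these data known.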

Additional observations from a re-analysis of the deposited data

Results flagged for a closer look

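Reads on the strand opposite to a member are outside the counts used above. They were above 3 counts in both libraries at 2 members. At Mir3074-1 there were 57 and 58 such reads in replicates 1 and 2, 115 together, beside 666 and 313 on its own strand. The opposite strand there holds Mir24-1. At Mir7654, in coding sequence of Arglu1, there were 4 and 6, 10 together, beside 34 and 25. Over all 119 members the opposite strand held 64 and 66 reads.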

How the results depend on the processing

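No paired analysis was possible because the libraries form 1 group. Leaving out Mir1983 and leaving out transcripts with a retained intron were settings chosen after seeing the data. The members' share of counts ranged from 0.553 to 0.699% when either library was left out and was 0.301% without Mir1983. The median member level ranged from 4.78 to 5.68 CPM when either library was left out and was 11.4 CPM at a minimum of 20 summed counts. Of the 12 members called, 7 remained when genes of any count were tested (4.42% of all genes called), 2 of them higher in replicate 1, and Mir3572, Mir5116, Mir5126, Mir6399 and Mir7662 were lost. At a minimum of 100 counts 1 was called (5.26% of all genes), higher in replicate 1, and 0 in the other direction by the exact binomial test, where 23 members were tested and 13 of them had an unadjusted p under 0.05. In edgeR's exact test with an assumed variation of 0.2, 1 member was called (0.220% of all genes), 0 of them higher in replicate 1, with 10 members at an unadjusted p under 0.05. With no minimum fold 24 were called (49.1% of all genes), 11 and 13 higher in replicates 1 and 2. Scaling by total counts lost Mir6399 (adjusted p of 0.0641 in the exact binomial test). The median fold was 1.43 at a minimum of 100 counts. Pearson's r was 0.86 with 0.1 CPM added, 0.95 at a minimum of 100 counts and 0.89 without Mir1983, and Spearman's rho 0.82 at a minimum of 100 counts. In the log2 ratios of the 12 called members no direction changed under total or DESeq2 scaling. Counts of members by place and at an intron end stayed within 1.5 times under the settings run, with 29 in exons without retained introns. Leaving out a library leaves no ratio, so that was not run for the calls.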
